A study of Bos taurus with 6 samples.

Results

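Heat shock proteins and chaperones are represented here by 10 genes: HSPA1A, HSPH1, DNAJB1, HSP90AA1, HSPB1, HSPA8, HSP90AB1, HSPA5, HSPD1 and HSPE1. The array names 15342 genes. The probes of the 10 were taken as every probe other than a control whose gene name, or the symbol in brackets in its description, was one of these, and each probe was kept as a separate measurement. This gave 40 of the 43653 probes of the array. The 3 fat-1 animals were female cattle carrying fat-1, a gene of the nematode Caenorhabditis elegans whose enzyme converts omega-6 into omega-3 fatty acids. The 3 others were wild type cows. The age of the cows was 3 years, other than 3.5 years for fat-1 replicate 1. Whole blood drawn from the jugular vein gave the RNA of all 6, and each animal has 1 array with a single dye. The promoter of the transgene and the number of founder lines are not given in the sources used here, and the fat-1 transcript itself was not analysed here.

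Chaperones bind proteins that are unfolded or newly made and help them reach or regain their shape. Hsp70 proteins, among them HSPA1A and HSPA8, bind exposed stretches of a client with the help of J-domain proteins such as DNAJB1 and of the exchange factor HSPH1, and they hand clients on to the Hsp90 proteins HSP90AA1 and HSP90AB1. In stressed cells heat shock factor 1 switches on a group of these genes. HSPA1A, HSPH1, DNAJB1, HSP90AA1 and HSPB1 are treated here as the stress-inducible class, with 17 probes. HSPA8, HSP90AB1, HSPA5, HSPD1 and HSPE1 are made in unstressed cells and form the constitutive class, with 23 probes. HSPA5, HSPD1 and HSPE1 serve the endoplasmic reticulum or the mitochondria and also answer to stress in those compartments.

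A level below is the log2 processed intensity of a probe minus the 75th percentile of its array, so 0 is the brightness of that percentile. A difference is the mean level in fat-1 blood minus that in wild type blood, on the log2 scale, and its standard error (SE) is that of the limma fit over all probes. Probes differ in how well they bind, so levels are set side by side between animals and not between probes. Probes of a gene are numbered from the 3′ end by their position in the files, except HSPA1A probe 6 and HSPB1 probe 2, which have no place in that order and come last. HSPA1A probe 1, HSPA8 probe 1 and HSPD1 probe 1 were placed only in part, so their place in the order is uncertain. Positions are those of the file headers' build, Btau_3.1.

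The probes of the inducible HSP90AA1 and the constitutive HSP90AB1, the cytosolic Hsp90 pair, are shown first because they belong to different classes and have similar sequences. The class comparison below uses other probes of both genes, HSP90AA1 probe 2 and HSP90AB1 probe 1. HSP90AA1 probe 5 spans chr21:67027997-67028342 on the minus strand and HSP90AB1 probe 4 spans chr23:18390504-18390686 on the plus strand, each across an intron. They cover the same stretch of the Hsp90 message. Over 57 aligned bases 46 were identical (80.7%), and capitals mark the 11 that differ.
HSP90AA1 probe 5: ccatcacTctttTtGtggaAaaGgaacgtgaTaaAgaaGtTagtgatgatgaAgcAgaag
HSP90AB1 probe 4: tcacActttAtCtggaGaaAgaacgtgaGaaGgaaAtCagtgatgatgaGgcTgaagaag
Cross-binding between such probes cannot be told from these data. The difference was 0.20 at this HSP90AA1 probe and -0.05 at the HSP90AB1 probe.

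HSP90AB1 probes 2 and 3 overlap by 30 bases and disagree at 1 of them, G3T counted from the 5′ end of probe 2, which is in capitals. They read a single transcript from shifted oligos, at chr23:18392092-18392275 and chr23:18392062-18392245. Since they overlap and were read on the same arrays, their differences are not independent of each other.
HSP90AB1 probe 2: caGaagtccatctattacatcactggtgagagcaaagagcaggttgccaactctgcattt
HSP90AB1 probe 3: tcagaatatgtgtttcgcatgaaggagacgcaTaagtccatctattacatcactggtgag
Their differences were -0.35 at probe 2 and -0.34 at probe 3.

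HSPA1A probes 4 and 1 share a run of 29 bases, in capitals. Probe 4 lies whole at chr23:27312716-27312775 on the minus strand, while only 30 bases of probe 1 were placed, at chr23:27311277-27311306, so the position of probe 1 is uncertain.
HSPA1A probe 4: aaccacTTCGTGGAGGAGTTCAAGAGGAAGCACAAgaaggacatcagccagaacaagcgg
HSPA1A probe 1: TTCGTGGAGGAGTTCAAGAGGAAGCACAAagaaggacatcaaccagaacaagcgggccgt
The differences were 0.07 at probe 4 and -0.01 at probe 1.

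HSPD1 probes 4 and 5 gave the largest differences above 0 among the members and are printed for that reason, with HSPE1 probe 2, which reads the partner of HSPD1. HSPD1 probe 4 lies at chr2:90241586-90241645 and probe 5 spans an intron at chr2:90245046-90245501, both on the minus strand. HSPE1 probe 2 spans an intron at chr2:90252340-90252478 on the plus strand.
HSPD1 probe 4: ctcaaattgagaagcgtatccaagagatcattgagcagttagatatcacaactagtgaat
HSPD1 probe 5: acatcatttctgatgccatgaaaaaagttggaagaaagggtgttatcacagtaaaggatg
HSPE1 probe 2: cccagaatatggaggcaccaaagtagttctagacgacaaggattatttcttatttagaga

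HSPA8 probe 5, at chr15:32349792-32349851 on the minus strand, had the most negative difference of its gene.
HSPA8 probe 5: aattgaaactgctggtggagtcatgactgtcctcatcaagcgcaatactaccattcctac

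Not every member probe reads its gene whole. By the coordinates in the scanner files, 34 of the 40 probes were fully placed, and 10 of the 40 crossed an intron. HSPA1A probe 6 carries the name HSPA2, a related Hsp70 gene, and lies on chromosome 10. HSPB1 probe 2 has no position. HSPA8 probe 1, HSPD1 probe 1 and HSP90AB1 probe 6 were placed over 20, 39 and 59 bases. Near-identical copies of HSPA1A exist in mammals, and the HSPA1A probes may read them too.

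All 40 member probes were well above background on all 6 arrays. Arrays had 58.4% to 63.4% of probes well above background, and correlations between pairs of arrays ran between 0.955 and 0.984. Markers of the cells of blood were present, with 9 of 9 monocyte, 10 of 10 T cell, 4 of 4 gamma-delta T cell, 6 of 6 NK cell, 5 of 5 B cell, 5 of 5 platelet, 5 of 6 red cell and 5 of 7 neutrophil genes on the array passing the filter. The neutrophil receptors CXCR1 and CXCR2 did not pass it. All fat-1 arrays were on slide 1 and all wild type arrays on slide 2, so slide and genotype cannot be told apart in any difference below. In whole blood, fewer cells of a type and less RNA per cell cannot be told apart either.

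No probe of the 10 chaperone genes passed the test for a difference between fat-1 and wild type blood. Of the 40 probes, 0 passed an adjusted p of 0.05 in limma, where 0.171% of the 26823 probes tested did (0.0783% above 0 and 0.0932% below 0). At an unadjusted p under 0.05 the count was also 0 of 40, against 12.8% of all probes (6.15% above 0 and 6.68% below 0). At an unadjusted p under 0.05 with at least a 2-fold difference it was 0 of 40, against 4.06%. The levels of the 3 fat-1 and the 3 wild type animals did not overlap at 2 of the 40 probes (5%), against 19.6% of all probes.

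**Figure D1:**
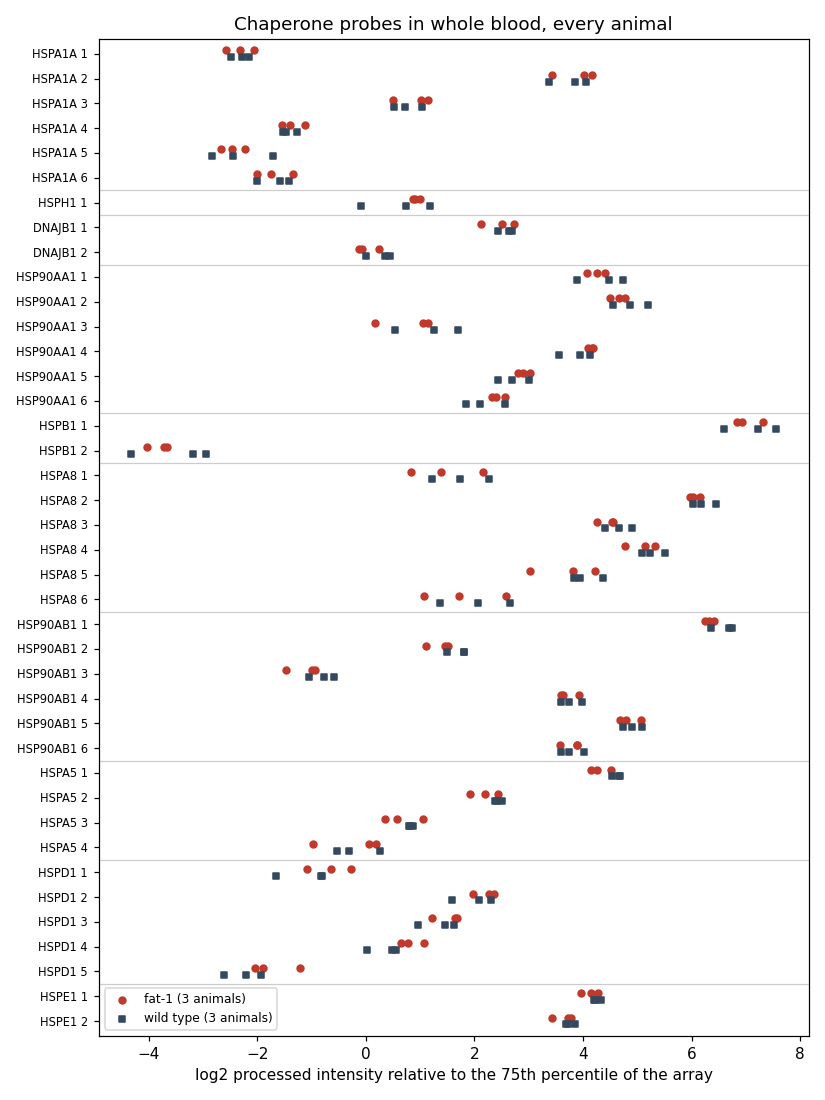
Level of each of the 40 chaperone probes in every animal, as log2 processed intensity minus the array's 75th percentile; circles are the 3 fat-1 animals and squares the 3 wild type animals. The 2 groups overlap at every probe other than HSPD1 probe 4 and HSPA5 probe 1.

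The sizes of the differences were small as well. They ran between -0.37, at HSP90AA1 probe 3, and 0.54, at HSPD1 probe 5. The median absolute difference was 0.21 over the member probes and 0.30 over all probes, and the median SE was 0.24 and 0.26. These medians and the shares over all probes given above take in dimmer probes, since 3 of 6 arrays well above background sufficed. All 40 member probes were well above background on 6 of 6, and the sets were not matched for brightness. The 95% interval lay inside a 2-fold change either way at 31 of the 40 probes. The widest intervals reached -1.25, at HSPA8 probe 6, and 1.20, at HSPD1 probe 5, and the interval of each of the other 9 probes took in a 2-fold difference. The smallest adjusted p was 0.414, at HSPD1 probe 4.

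The balance of directions among the small differences depended on how the arrays were scaled. The median difference was -0.12 over the member probes and -0.06 over all probes, and 27 of the 40 member probes (67.5%) lay below 0, against 55.4% of all probes. With quantile scaling 20 of the 40 lay below 0 and the median was 0.00, while 33 of the 40 kept their sign.

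**Figure D2:**
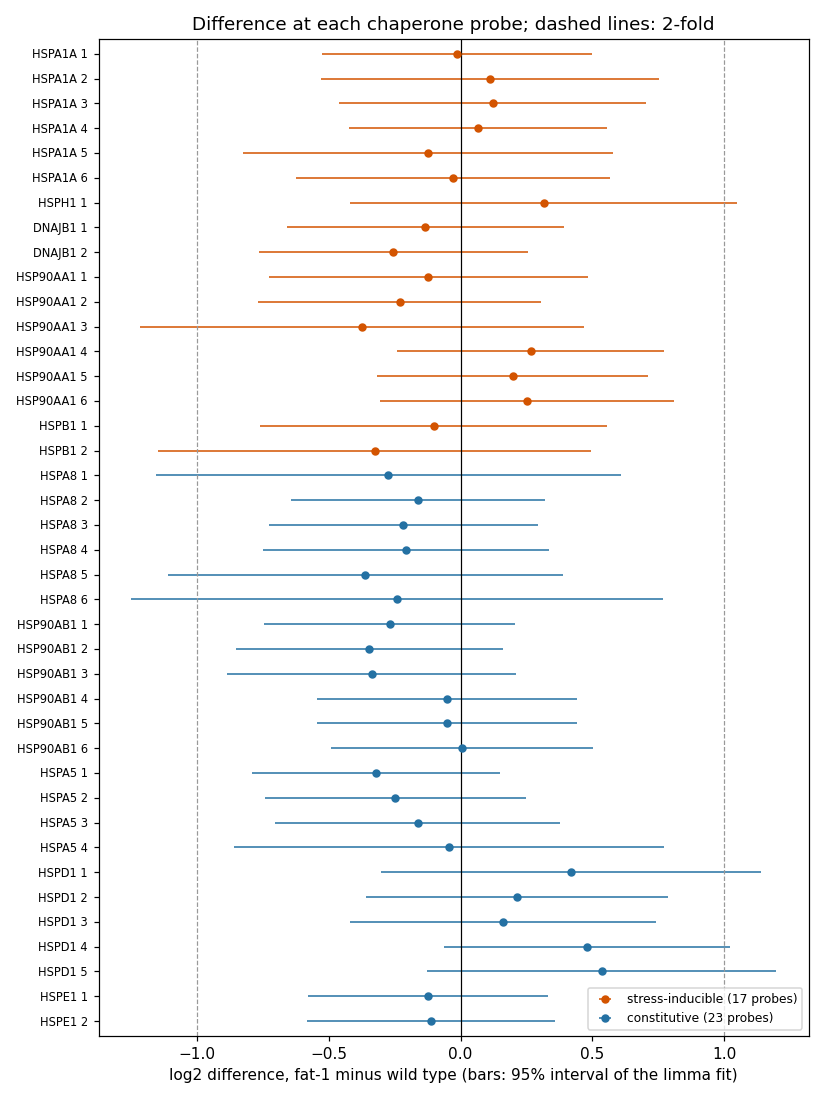
Difference in log2 level, fat-1 minus wild type, at each chaperone probe, with the 95% interval of the limma fit; orange marks the stress-inducible class (17 probes), blue the constitutive class (23 probes), and dashed lines a 2-fold change. The interval includes 0 at all 40 probes.

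HSPA1A, the stress-inducible cytosolic Hsp70, stood near 0 at all 6 probes, with differences between -0.12 and 0.12. At probe 2 the levels were 3.42, 4.17 and 4.02 in fat-1 animals, against 3.38, 4.05 and 3.85 in wild type animals. At probe 3 they were 0.50, 1.02 and 1.14 in fat-1 animals, against 0.52, 1.04 and 0.73 in wild type animals. At both probes replicate 1 of each group was the lowest of its 3 animals, and the groups overlapped over most of their range. The difference was 0.11 ± 0.28 (SE) at probe 2 and 0.12 ± 0.25 at probe 3, with adjusted p-values in limma of 0.854 and 0.822. At the dim probe 1 the difference was -0.01, and -0.23 with normexp background correction. Across the 6 probes the 95% intervals reached no further than -0.83 and 0.75. At 3 of the probes the difference lay above 0 and at 3 below.

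HSPH1, an Hsp110 protein that recharges Hsp70 with ATP, had 1 probe, at chr12:29619632-29619691. Its levels were 0.87, 0.91 and 1.00 in fat-1 animals, against 0.74, -0.09 and 1.19 in wild type animals. The fat-1 animals were close together, with a mean of 0.93 ± 0.06 (SD, n = 3), inside the wild type range (mean 0.61 ± 0.65, n = 3). The difference was 0.31 ± 0.32 (SE), with a 95% interval of -0.42 to 1.05 and an adjusted p of 0.632. Without wild type replicate 2, the lowest animal, it was -0.04.

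DNAJB1, the inducible J-domain partner that delivers clients to Hsp70, had 2 probes on chromosome 7. Probe 2 gave -0.13, -0.08 and 0.24 in fat-1 animals, against 0.35, 0.45 and 0.01 in wild type animals. Fat-1 replicate 3 stood above the lowest wild type animal. The difference was -0.26 ± 0.22 (SE) at probe 2 and -0.13 ± 0.23 at probe 1, with adjusted p-values of 0.585 and 0.777.

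HSP90AA1, the inducible cytosolic Hsp90, gave differences on both sides of 0. Probe 3 gave 1.05, 0.16 and 1.15 in fat-1 animals, against 1.69, 0.54 and 1.26 in wild type animals. Probe 4 gave 4.16, 4.18 and 4.10 in fat-1 animals, against 4.13, 3.56 and 3.94 in wild type animals. Fat-1 replicate 2 was the lowest of 6 at probe 3, and wild type replicate 2 the lowest of 6 at probe 4.

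At the 3 HSP90AA1 probes nearest the 3′ end the differences were -0.12, -0.23 and -0.37, and at the 3 further upstream they were 0.27, 0.20 and 0.25. The SEs of the 6 lay between 0.22 and 0.37, and the smallest adjusted p was 0.566. The split by position was noticed after the values were seen and was not tested. The probes of HSP90AA1 thus had no common direction.

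HSPB1, the small heat shock protein Hsp27, which holds unfolded clients without ATP, was variable between animals. Probe 1, at chr25:36499455-36499514, gave 6.93, 7.31 and 6.83 in fat-1 animals, against 7.22, 7.56 and 6.60 in wild type animals. Wild type animals held both the highest and the lowest level, and their SD of 0.48 was larger than the 0.25 of fat-1 animals. The difference was -0.10 ± 0.29 (SE, adjusted p 0.869), and 0.11 with quantile scaling or without wild type replicate 2. The unplaced probe 2 gave -0.33 ± 0.36 (adjusted p 0.655), and -0.52 with normexp.

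HSPA8, the constitutive cytosolic Hsp70, had a difference below 0 at all 6 probes, between -0.36 and -0.16, with adjusted p-values of 0.593 to 0.791. At probe 2 the levels were 6.15, 5.97 and 6.03 in fat-1 animals, against 6.45, 6.17 and 6.02 in wild type animals. At probe 5 they were 4.22, 3.03 and 3.82 in fat-1 animals, against 4.37, 3.84 and 3.94 in wild type animals. Fat-1 replicate 2 was the lowest animal and wild type replicate 1 the highest at both. The 2 differences were -0.16 ± 0.21 and -0.36 ± 0.33 (SE). Without fat-1 replicate 2 the differences were below 0 at 4 of the 6 probes, with a median of -0.04, and with quantile scaling at 5 of the 6.

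The spread of HSPA8 between animals was largest at probe 6, the furthest upstream by its position in the files. Probe 6, at chr15:32351101-32351160, gave 2.59, 1.07 and 1.71 in fat-1 animals, against 2.66, 1.37 and 2.07 in wild type animals. The 6 animals spanned 1.59 there, 1.35 at probe 5, 0.48 at probe 2 and 1.43 at probe 1. Only 20 bases of probe 1 were placed, so where it lies in the message is uncertain. Replicate 2 was the lowest of each group at probes 5 and 6. RNA integrity values of the samples were not used here, and their part in this was not tested.

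HSP90AB1, the constitutive cytosolic Hsp90, had differences between -0.35 and 0.00, below 0 at 5 of 6 probes. Probe 1, at chr23:18393440-18393499, gave 6.24, 6.32 and 6.42 in fat-1 animals, against 6.69, 6.74 and 6.36 in wild type animals. Probe 2 gave 1.45, 1.1 and 1.52 in fat-1 animals, against 1.81, 1.80 and 1.49 in wild type animals. At both probes wild type replicates 1 and 2 stood above every fat-1 animal, and wild type replicate 3 lay among them. The differences were -0.27 ± 0.21 at probe 1 and -0.35 ± 0.22 at probe 2 (SE), with adjusted p-values of 0.542 and 0.480. With quantile scaling 3 of the 6 probes lay below 0.

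HSPA5, or BiP, the Hsp70 of the endoplasmic reticulum and a target of the unfolded protein response, had a difference below 0 at all 4 probes, between -0.32 and -0.05. Probe 1, at chr11:99543141-99543200, gave 4.26, 4.14 and 4.51 in fat-1 animals, against 4.53, 4.66 and 4.68 in wild type animals. Every fat-1 animal was below every wild type animal, though the nearest of each group were almost level. Non-overlap in this direction was found at 12.7% of all probes. The difference was -0.32 ± 0.21 (SE), with a 95% interval of -0.79 to 0.15 and an adjusted p of 0.481, and -0.16 with quantile scaling. At probe 4, the furthest upstream, the levels were 0.19, 0.06 and -0.98 in fat-1 animals, against -0.54, 0.26 and -0.31 in wild type animals. There fat-1 replicate 3 was the lowest of all 6, and the difference was -0.05 ± 0.36.

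HSPD1, or Hsp60, the chaperonin that folds proteins inside mitochondria, had a difference above 0 at all 5 probes, between 0.16 and 0.54. Probe 4 gave 1.08, 0.77 and 0.64 in fat-1 animals, against 0.48, 0.03 and 0.55 in wild type animals. Every fat-1 animal was above every wild type animal, as at 6.92% of all probes. The difference was 0.48 ± 0.24 (SE), with a 95% interval of 0.96-fold to 2.03-fold, an unadjusted p of 0.0758 in limma and an adjusted p of 0.414.

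At HSPD1 probe 5 the levels were -1.22, -1.90 and -2.04 in fat-1 animals, against -2.21, -2.61 and -1.94 in wild type animals. Wild type replicate 3 was above fat-1 replicate 3, so the groups overlapped. The difference was 0.54 ± 0.29 (SE, adjusted p 0.433), and 0.20 with normexp background correction. At probe 2 the levels were 2.36, 1.98 and 2.27 in fat-1 animals, against 2.08, 1.58 and 2.30 in wild type animals, and the difference was 0.21 ± 0.25. Wild type replicate 2 was the lowest of all 6 animals at each of the 5 probes. Without it the differences lay above 0 at 4 of the 5 probes, with a median of 0.14, against 0.42 with all 6 animals.

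HSPE1, or Hsp10, the lid that closes the HSPD1 chamber, had 2 probes with differences of -0.12 and -0.11. Probe 1, at chr2:90252540-90252599, gave 4.27, 3.97 and 4.15 in fat-1 animals, against 4.33, 4.20 and 4.23 in wild type animals. Probe 2 gave 3.78, 3.42 and 3.72 in fat-1 animals, against 3.86, 3.68 and 3.72 in wild type animals. The 6 animals spanned 0.36 at probe 1 and 0.43 at probe 2, and each of the other 9 genes had a probe with a wider span. The adjusted p-values were 0.760 and 0.791, and with quantile scaling both differences were 0.02.

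**Figure D3:**
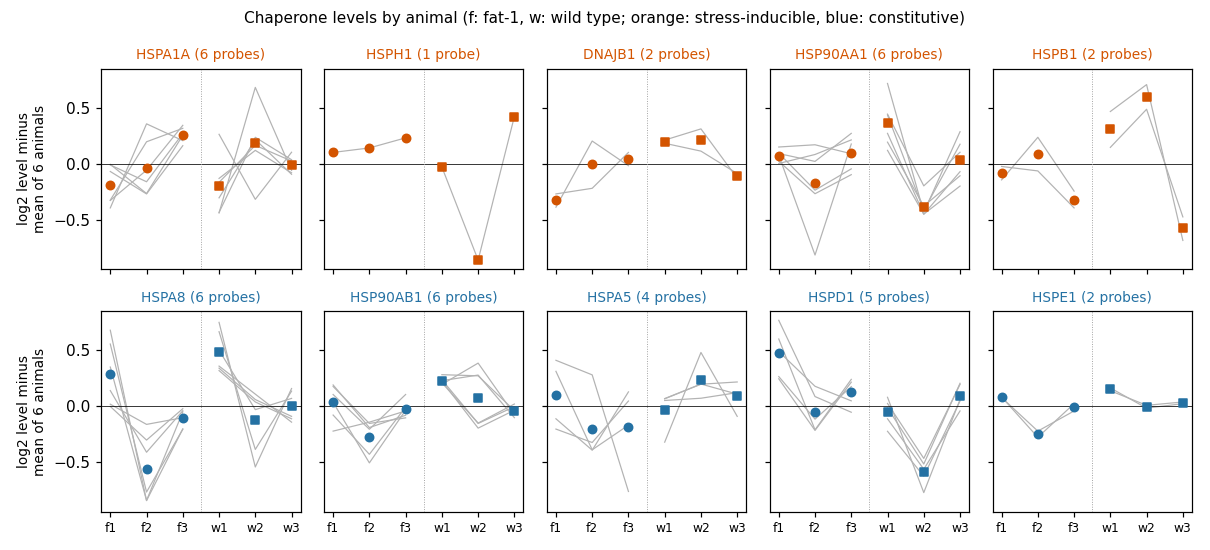
Level of each chaperone gene by animal, as log2 level minus the mean of the 6 animals; f1 to f3 are the fat-1 animals and w1 to w3 the wild type animals, grey lines join the values of 1 probe within a group, and points are the mean over the probes of a gene. HSPD1 and HSP90AA1 are lowest in wild type replicate 2, and HSPA8, HSP90AB1, HSPA5 and HSPE1 in fat-1 replicate 2.

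Single animals stood out for several genes at a time. Averaged over the probes of a gene and set against the mean of all 6 animals, fat-1 replicate 2 was the lowest for HSPA8 (-0.56), HSP90AB1 (-0.27), HSPA5 (-0.20) and HSPE1 (-0.25). Wild type replicate 1 was the highest for HSP90AA1 (0.36), HSPA8 (0.49), HSP90AB1 (0.23) and HSPE1 (0.15). Wild type replicate 2 was the lowest for HSPH1 (-0.86), HSP90AA1 (-0.39) and HSPD1 (-0.59), and the highest for HSPB1 (0.59), DNAJB1 (0.21) and HSPA5 (0.24). These animal to animal offsets were as large as or larger than the difference between the groups for each of these genes.

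The comparison of the classes asked whether stress-inducible chaperones moved apart from constitutive ones. With the brightest probe of each gene, centred on the mean of the 6 animals, the inducible class averaged -0.16, 0.13 and 0.01 in fat-1 animals, against 0.06, -0.05 and 0.00 in wild type animals. The constitutive class averaged -0.01, -0.20 and 0.01 in fat-1 animals, against 0.15, 0.00 and 0.05 in wild type animals. The difference between the groups was -0.01 for the inducible class and -0.13 for the constitutive class.

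Inducible minus constitutive came to -0.15, 0.33 and 0.01 in fat-1 animals, against -0.09, -0.05 and -0.05 in wild type animals. Fat-1 animals held both the highest and the lowest value, and their mean was 0.06 ± 0.24, against -0.06 ± 0.02 in wild type animals (SD, n = 3 each). The difference of 0.12 was within the spread of the fat-1 animals. It was -0.01 with fat-1 replicate 2 left out, 0.23 with fat-1 replicate 1 left out and 0.06 with the mean of all probes of each gene. Set against the cytosolic HSPA8 and HSP90AB1 alone, the inducible class differed by 0.21. By animal this contrast was -0.06, 0.29 and 0.08 in fat-1 animals, against -0.21, -0.21 and 0.11 in wild type animals, so the groups overlapped. No p is given for these averages, since the members and classes were chosen with results of these data known.

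**Figure D4:**
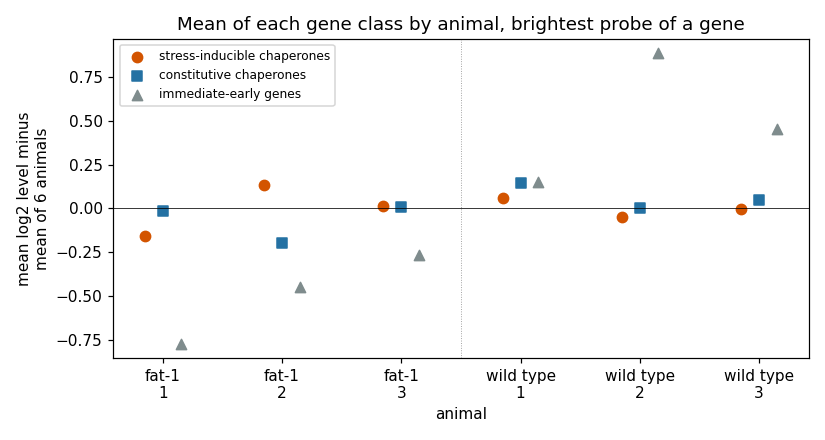
Mean log2 level of the 5 stress-inducible chaperones, the 5 constitutive chaperones and 12 immediate-early genes in each animal, minus the mean of the 6 animals, with the brightest probe of each gene. Both chaperone class means stay between -0.20 and 0.15. The mean of the immediate-early genes lies between -0.77 and -0.27 in fat-1 animals and between 0.15 and 0.89 in wild type animals. Opposite offsets of single genes cancel within a class mean. In wild type replicate 2, averaged over the probes of a gene, HSPH1 is at -0.86 and HSPB1 at 0.59.

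Genes of another stress response had larger differences in the same blood. Immediate-early genes, which answer within minutes to handling of cells, had differences below 0 at 12 of 12 genes, against 55.4% of all probes, with a median of -1.11. Of the 12, 9 had an unadjusted p under 0.05, against 6.68% of all probes below 0 at that p, though 0 passed the adjusted threshold. The rest had differences between -0.18 and -0.05. The list was chosen with earlier results of these data known, so the count of 9 is not read as a result. Wild type replicate 2 had the highest mean of the list, 0.89 above the mean of all animals. The other wild type animals were at 0.15 and 0.45. No value with another scaling or with an array left out is given for this list. The summed level of the 12 genes, on the linear scale, was 136 to 183 in fat-1 animals and 226 to 343 in wild type animals. PPP1R15A, which restores translation after stress, had a difference of -1.90 (adjusted p 0.0778), and ATF3, a stress-induced transcription factor, had one of -1.54 (adjusted p 0.114). PPP1R15A was well above background on 2 of 3 fat-1 arrays and on 3 of 3 wild type arrays.

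No marker of a blood cell type passed the adjusted threshold, and their values stand here beside the chaperones. The 4 gamma-delta T cell genes had differences below 0, with a median of -1.47 and summed levels of 6.65 to 26.5 in fat-1 animals and 32.6 to 60.0 in wild type animals. Of the 10 T cell genes 9 lay below 0 (median -0.41, summed levels 184 to 279 in fat-1 and 313 to 467 in wild type animals). The 5 B cell genes disagreed in direction, with 2 above and 3 below 0, and 1 on each side had an unadjusted p under 0.05 in limma. Their median was -0.28, with summed levels of 56.9 to 62.7 in fat-1 animals and 65.1 to 106 in wild type animals. For these 3 lists the summed levels of the groups did not overlap, narrowly so for the B cell genes. A sum on the linear scale is carried mostly by the brightest genes of a list. No share of non-overlapping sums over all genes is given, so the non-overlap is not read as a result.

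The summed levels of the other lists overlapped between the groups. The median was 0.31 for 9 monocyte genes (188 to 242 in fat-1, 173 to 223 in wild type animals), 0.50 for 5 platelet genes (126 to 204 in fat-1, 132 to 174 in wild type animals) and 0.03 for 5 neutrophil genes (221 to 335 in fat-1, 220 to 336 in wild type animals). It was -0.46 for 6 NK cell genes (31.9 to 53.9 in fat-1, 34.3 to 49.0 in wild type animals). At an unadjusted p under 0.05 in limma, 2 of 6 NK, 2 of 10 T and 4 of 4 gamma-delta T cell genes lay below 0. The share of all probes below 0 at that p was 6.68%. Above 0 at that p were 1 of 9 monocyte and 1 of 5 platelet genes, against 6.15% of all probes. The 5 red cell genes had a median of 0.95 and disagreed in direction, with 3 above and 2 below 0. Their summed levels were 531 to 1034 in fat-1 animals and 98.4 to 1227 in wild type animals. SLC4A1, the anion exchanger of red cells and the list's only gene with an unadjusted p under 0.05, had a difference of -1.44 and was well above background on 0 of 3 fat-1 arrays and 3 of 3 wild type arrays. The part of these markers in the chaperone values was not tested.

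The wider chaperone network was read from 8 lists of 120 genes, of which 113 were on the array and 104 passed the filter. None of the 104 passed an adjusted p of 0.05, and 5 lay above 0 and 9 below 0 with an unadjusted p under 0.05, together 13.5%, against 12.8% of all probes. Their median difference was -0.14. The genes named below were the 3 of each list with the smallest p, and all had an adjusted p of at least 0.270.

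Wild type replicate 2 carried much of several differences, and values without it are given where they moved by over 1.5 times. Leaving out wild type replicate 3 also moved some by over 1.5 times. The median of other Hsp70 and Hsp110 genes became 0.43, that of cochaperones -0.22, and HSPA4 0.60, all further from 0. The medians of J-domain partners and of heat shock factors became 0.01 and -0.07, nearer 0.

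Among the 22 cochaperones of Hsp70 and Hsp90 the median was -0.11, and -0.03 without wild type replicate 2, with 2 genes above 0 and 4 below 0 at an unadjusted p under 0.05. BAG3, an exchange factor induced together with Hsp70 that steers clients to autophagy, gave 2.50, 2.51 and 2.78 in fat-1 animals, against 3.26, 3.79 and 3.18 in wild type animals. Every fat-1 animal was below every wild type animal, as at 12.7% of all probes, and the difference was -0.81 ± 0.24 (SE, adjusted p 0.275). TOMM34, which guides precursors to mitochondria, gave 3.09, 3.14 and 3.27 in fat-1 animals, against 3.91, 4.03 and 3.68 in wild type animals, a difference of -0.71 ± 0.20 (adjusted p 0.270). CHORDC1, an Hsp90 partner, gave -1.15, -1.05 and -1.37 in fat-1 animals, against -1.96, -3.42 and -2.08 in wild type animals. Its difference of 1.3 ± 0.38 (adjusted p 0.274) was 0.83 without wild type replicate 2, the lowest animal, and 0.78 with normexp.

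Heat shock factors, which switch the inducible class on, did not pass the test either. HSF1, the main factor of the heat shock response, gave 2.35, 2.61 and 2.42 in fat-1 animals, against 3.07, 3.44 and 2.57 in wild type animals. Fat-1 replicate 2 was above wild type replicate 3, and the difference was -0.57 ± 0.26 (SE, adjusted p 0.402), or -0.36 without wild type replicate 2. HSF2 gave -1.83, -1.60 and -1.62 in fat-1 animals, against -2.13, -3.00 and -1.50 in wild type animals, a difference of 0.53 ± 0.36 (adjusted p 0.495). It was 0.14 without wild type replicate 2, 0.89 without wild type replicate 3 and 0.21 with normexp. The difference of HSF4 was -0.27 ± 0.23, and -0.11 without wild type replicate 2. The median of the 5 genes of this list was -0.15, and -0.26 to -0.0023 with 1 array left out.

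J-domain partners of Hsp70 had a median of 0.07 over 18 genes, with 9 above and 9 below 0, and the median turned to -0.03 with normexp and to -0.01 without fat-1 replicate 2. DNAJC9, a histone chaperone, had a difference of 0.76 ± 0.25 (SE), which was -0.02 with normexp. That of DNAJC5, the cysteine string protein of secretory vesicles, was -0.73 ± 0.27, or -0.47 without wild type replicate 2, and that of DNAJB5 was -0.60 ± 0.23. The adjusted p-values were 0.324, 0.356 and 0.360.

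The other Hsp70 and Hsp110 genes that passed the filter were 5, with a median of 0.25, which was -0.07 without wild type replicate 2 and 0.0020 with array weights. Among the 5 was HSPA2, read by the same probe that is counted among the members as HSPA1A probe 6. The difference of HSPA13 was 0.75 ± 0.35 (SE), and 0.25 with normexp. That of HSPA4, a cytosolic Hsp110, was 0.38 ± 0.26, and 0.20 without wild type replicate 2. HSPA12B had a difference of -0.87 ± 0.33 and was well above background on 1 of 3 fat-1 arrays and on 3 of 3 wild type arrays. Of the small heat shock proteins, 3 passed the filter, with a median of -0.38, and -0.22 without wild type replicate 2. HSPB2 had a difference of -0.87 ± 0.41, or -0.40 without fat-1 replicate 2, and HSPB6 one of -0.38 ± 0.26, or -0.19 without wild type replicate 2. That of HSPB8 was 0.03 ± 0.60, and -0.55 to 0.72 with 1 array left out.

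In the cytosolic chaperonin and prefoldin list, which folds actin and tubulin, 12 of 15 genes lay below 0 and the median was -0.19, or -0.05 with quantile scaling and -0.09 without fat-1 replicate 2. PFDN4, a prefoldin subunit, had a difference of -0.73 ± 0.21 (SE, adjusted p 0.274). That of PFDN1 was -0.39 ± 0.21, and -0.25 with quantile scaling. That of the chaperonin subunit CCT6A was 0.73 ± 0.35, and 0.34 without wild type replicate 2.

 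Mitochondrial chaperones and proteases, the partners of HSPD1 in that organelle, had a median of -0.21, with 11 of 14 genes below 0. The median was -0.09 with quantile scaling and -0.05 without wild type replicate 2. GRPEL2, an exchange factor of mitochondrial Hsp70, had a difference of -0.56 ± 0.21 (SE). That of the unfoldase CLPX was 0.79 ± 0.32, and 0.48 without wild type replicate 2. That of the protease YME1L1 was 0.48 ± 0.26, and 0.28 without the same animal.

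Chaperones of the endoplasmic reticulum, the companions of HSPA5, had a median of -0.12 over 22 genes, with 13 below 0. PDIA4, a disulphide isomerase, had a difference of -0.55 ± 0.24 (SE), or -0.36 without wild type replicate 2. That of CALR, calreticulin, which folds glycoproteins, was -0.31 ± 0.22, or -0.08 with quantile scaling and -0.18 without wild type replicate 2. That of ERO1A, the oxidase that recharges disulphide isomerases, was 0.57 ± 0.25. The median of this list was -0.0039 with quantile scaling, 0.04 without wild type replicate 2 and -0.02 without fat-1 replicate 2, and that of the cochaperones was 0.02 with quantile scaling.

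**Figure D5:**
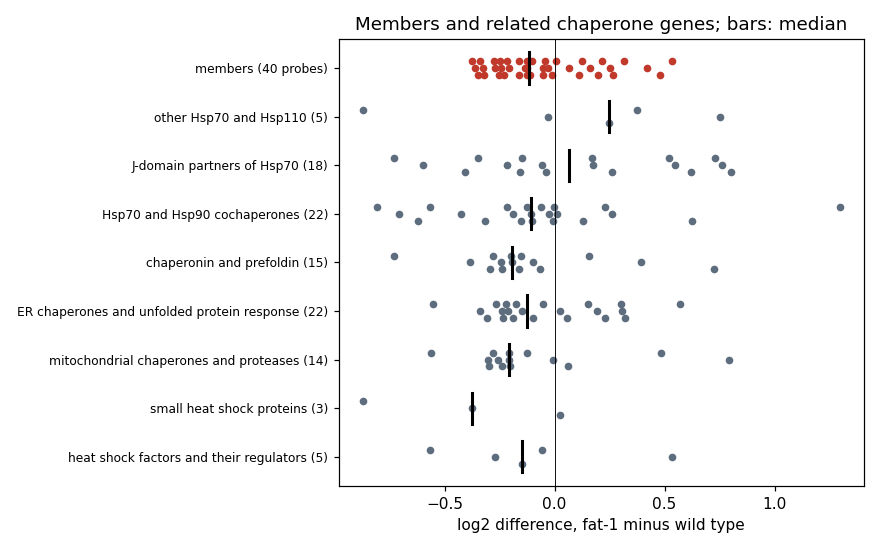
Difference in log2 level, fat-1 minus wild type, of the 40 member probes (red) and of the genes of 8 related lists (grey, 1 probe a gene, number of genes in brackets), with a black bar at the median of each. The list medians lie between -0.38, for small heat shock proteins, and 0.25, for other Hsp70 and Hsp110 genes (-0.07 without wild type replicate 2), and member probes between -0.37 and 0.54.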

How the data were processed

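Whole blood RNA of 6 cows was hybridised as Cy3-labelled cRNA to 1-colour Agilent arrays, per the labels, whose probes are 60 bases long in the scanner files. The authors deposited scanner files whose processed intensity was already background-subtracted, per the file headers (Agilent Feature Extraction, version 10.7.1.1), and was not scaled between arrays. The log2 value table deposited by the authors has the same median, 6.38, on every array. It was used only as an alternative.

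Here spots of a probe were averaged, log2 of the processed intensity was taken, and each array's 75th percentile was subtracted. A probe was kept if 3 or more of the 6 arrays had it well above background, and 32 with an outlier flag were left out, which gave 26823 of 43653. Fat-1 was compared with wild type by limma 3.58.1 (lmFit, eBayes) in R 4.3.3, and p-values were adjusted by Benjamini-Hochberg over these probes. The fit was tested on simulated data. Each sample is 1 animal per the labels, and the small number of arrays limits the precision. Wild type replicate 2 was deposited rounded to fewer digits than the others. No block for slide could be fitted, since each slide holds 1 group.

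Probes of genes that are not members were named through RefSeq accessions (20595 probes), symbols (10745), older symbols (376) or the name in the file (543), and the brightest probe stood for a gene. The members, classes, lists and tests were chosen with earlier results of these data known. All members are named with their probes, and of each related list the 3 genes with the smallest p, with HSF1, HSF2 and BAG3 always, and the 2 immediate-early genes with the largest difference. SLC4A1, CXCR1 and CXCR2 were named after their values were seen. Heat shock elements in promoters and protein sequences were not analysed here. Alternatives were quantile and median scaling, normexp on the mean and local background intensity (offset 50) as deposited, no filter, a filter on all 6 arrays, the authors' table, an intensity trend, array weights, replicate number as a block, and each array left out in turn.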

Additional observations from a re-analysis of the deposited data

How the results depend on the processing

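No chaperone member probe passed the adjusted threshold under any of the 15 alternatives (smallest adjusted p 0.0831), and 0 passed among the 34 fully placed probes, a choice made after the data were seen. At an unadjusted p under 0.05 array weights gave 11 member probes and leaving out wild type replicate 3 gave 1, against 0 otherwise (0 to 1 over the arrays left out). The share of all probes at that p is not given for the alternatives. Counts at it, here and for the related lists below, are therefore not read as results. Over all probes the 46 calls became 16 with quantile scaling, 124 with median scaling, 117 with normexp, 14 without the filter, 16 with the authors' table, 125 with an intensity trend, 1986 with array weights and 8 to 55 with 1 array left out (8, 12 and 13 when fat-1 animal 1, 2 or 3 was dropped). Same-numbered animals did not pair (correlations of their deviations 0.117, 0.185 and 0.00580), and the replicate block gave 105 calls over all probes, 0 among members and 16 related genes at an unadjusted p under 0.05. In the related lists array weights gave 5 calls (among them TOMM34, PFDN4, BAG3 and DNAJC9) and 33 genes at an unadjusted p under 0.05, against 14. Leaving out 1 array gave 6 to 26, with 7 and 6 when the first or second fat-1 animal was dropped, 8 when wild type replicate 1 or 2 was, and 26 when wild type replicate 3 was. The related median was -0.025 with quantile scaling and -0.026 with the authors' table.

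Sign changed for 51 of 600 member values, at 22 probes, none past 0.32 in size, and the cause was not tested. With quantile scaling and with the authors' table, in that order, HSP90AA1 probe 1 was 0.023 and 0.023, HSPB1 probe 1 was 0.11 and 0.11, HSPA8 probe 2 was 0.043 and 0.044, HSP90AB1 probe 4 was 0.084 and 0.084, HSP90AB1 probe 5 was 0.14 and 0.15, HSPE1 probe 1 was 0.022 and 0.023, and HSPE1 probe 2 was 0.023 and 0.024. With array weights HSPA1A probe 1 was 0.10, HSPA1A probe 5 was 0.27, HSP90AA1 probe 5 was -0.045, HSP90AA1 probe 6 was -0.087, HSP90AB1 probe 6 was -0.21, HSPA5 probe 4 was 0.27 and HSPB8 was -0.73. With median scaling HSP90AB1 probe 6 was -0.038 and HSPB8 was -0.017. With normexp HSPA1A probe 4 was -0.055 and DNAJC9 was -0.024.

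With 1 array left out, ranges that crossed 0 were -0.14 to 0.12, -0.079 to 0.33, -0.0030 to 0.32, -0.053 to 0.17, -0.37 to 0.19 and -0.21 to 0.13 for HSPA1A probes 1 to 6. They were -0.037 to 0.60 for HSPH1, -0.27 to 0.026 for DNAJB1 probe 1, -0.37 to 0.061 for HSP90AA1 probe 1, -0.37 to 0.11 for HSPB1 probe 1, -0.62 to 0.038 for HSPA8 probe 1 and -0.64 to 0.12 for HSPA8 probe 6. They were -0.15 to 0.052, -0.16 to 0.040 and -0.091 to 0.12 for HSP90AB1 probes 4 to 6, -0.26 to 0.32 for HSPA5 probe 4, -0.030 to 0.31 for HSPD1 probe 3 and -0.55 to 0.72 for HSPB8. The median over all probes tested moved by at most 0.10, to -0.15 with normexp and -0.16 without the filter. Background correction moved dim probes most: with normexp HSPD1 probe 5 was 0.20, HSPB1 probe 2 was -0.52 and HSPA1A probe 1 was -0.23.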

Other observations

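HSPD1 and HSPE1, whose products form a single folding machine, lie on opposite strands of chromosome 2 with 6839 bases between their nearest probes. Averaged over the probes of each gene, and after both were centred on the 6 animals, HSPD1 minus HSPE1 was 0.39, 0.19 and 0.13 in fat-1 animals, against -0.20, -0.58 and 0.06 in wild type animals. Every fat-1 animal was above every wild type animal, and the difference between the groups was 0.48, or 0.31 without wild type replicate 2. The pair was chosen after the values were seen, and no test is given.

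FKBP5, a cochaperone of Hsp90 that binds steroid receptors and is induced by glucocorticoids, was picked out after its values were seen. It gave 1.75, 1.85 and 2.06 in fat-1 animals, against 1.26, 0.99 and 1.53 in wild type animals. Every fat-1 animal was above every wild type animal, as at 6.92% of all probes. The difference was 0.63 ± 0.23 (SE), with an adjusted p in limma of 0.352. DNAJA1, a J-domain protein of the cytosol, was chosen in the same way and gave 2.53, 2.47 and 2.75 in fat-1 animals, against 2.17, 1.62 and 2.39 in wild type animals. The groups did not overlap there either, in the same direction. The difference of DNAJA1 was 0.52 ± 0.25 (adjusted p 0.412), and 0.30 without wild type replicate 2.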
